A study of Mus musculus with 50 samples.

Results

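Dorsal root ganglia of the inbred mouse strain AKR/J were compared with those of other inbred strains by expression array. The 2 AKR/J arrays, 1 from males and 1 from females, were chosen by their strain label from 50 arrays of 25 strains. Each array held pooled total RNA of wildtype, untreated mice aged 2 months, with 3 mice per sex and strain by the labels, so the AKR/J values stand for 6 mice in 2 pools. The 44 arrays set against them, again 1 male and 1 female pool per strain, came from 22 strains, spelled here as in the labels: 129S1/Sv1mJ, A/J, BALB/CByJ, BTBT T+tf/J, BUB/BnJ, C3H/HeJ, c57BL/6J, C57BR/cdJ, C58/J, CBA/J, DBA/2J, FVB/NJ, KK/HIJ, MRL/MpJ, NOD/LtJ, NON/LtJ, NZO/HILtJ, NZW/LacJ, P/J, RIIIS/J, SJL/J and SWR/J. The 4 arrays of SM/J and PL/J were left out of the comparison because their labels are in doubt. A strain is 1 genotype, and both of its pools share it.

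Dorsal root ganglia hold the cell bodies of the sensory neurons that carry touch, itch, temperature and pain from the body to the spinal cord, wrapped by satellite glia and accompanied by Schwann cells, vessels, fibroblasts and macrophages. AKR/J is an albino strain kept as a model of thymic lymphoma driven by endogenous leukaemia viruses, and it carries the k haplotype of the major histocompatibility complex. Inbred strains differ at many loci, and a variant can change how much of a transcript is made, which end or exon it has, or how well an array probe binds it.

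The values are log2(intensity + 1). A gene was read from its leading probe set, the set with exactly 1 gene symbol and the highest mean over the 46 arrays compared. It was tested if it passed 4 in at least 2 arrays, which the 2 AKR/J arrays could meet alone. A call asked for a limma adjusted p under 0.05 and a difference of 1 log2 unit or more. Both AKR/J arrays also had to deviate the same way from the other arrays of their sex. Differences are AKR/J minus the mean of the 22 other strain means, with their standard error (SE), and every adjusted p below is limma's with Benjamini-Hochberg adjustment over all probe sets tested.

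Both AKR/J arrays went with their labels. The defining neuronal markers were present: all 12 genes of the sensory neuron list were tested, at a mean level of 11.81 in the male and 11.90 in the female AKR/J array, against medians of 11.82 and 11.80 in the other male and female arrays, and no member was called. Xist, the RNA that coats the inactive X chromosome, was at 2.95 in the male and 8.63 in the female AKR/J array, against medians of 3.00 and 10.09 in the other male and female arrays. The Gapdh 3′ minus 5′ signal, a sign of RNA integrity, was -0.66 in the male and -0.67 in the female AKR/J array, beside medians of -0.58 and -0.64. Deviations from the sex means correlated at 0.67 between the 2 AKR/J arrays over the probe sets tested, a description with no test, within the range of 0.14 to 0.69 for the pairs of other strains, and at no more than 0.29 between an AKR/J array and any array of another strain.

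AKR/J ganglia differed from the other strains in a small set of genes. Of 11209 genes tested, 84 were called (0.749%), 48 of them higher (0.428%) and 36 lower (0.321%). On leading probe sets, Cpne8, Cap1, Ahnak2 and H2-K1 were each lower by more than 3 log2 units, and Galc, the most raised gene, was higher by 2.70. Further sets of H2-D1 and Rgs5 were higher by 4.51 and 3.18. Where 1 side lay near background, as for Galc and Cpne8, the size of a difference depended on the pseudocount: with 16 in place of 1, Galc differed by 1.90. With that pseudocount 20 genes were called higher and 24 lower. No gene moved by 1 unit or more in opposite directions in the 2 arrays, while 36 genes were at least 1 unit above and 29 at least 1 unit below the other arrays in both sexes. Over all tested genes the median difference was 0.05. A test of the male against the female deviation called 1 of 22130 probe sets (0.00452%).

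**Figure D1:**
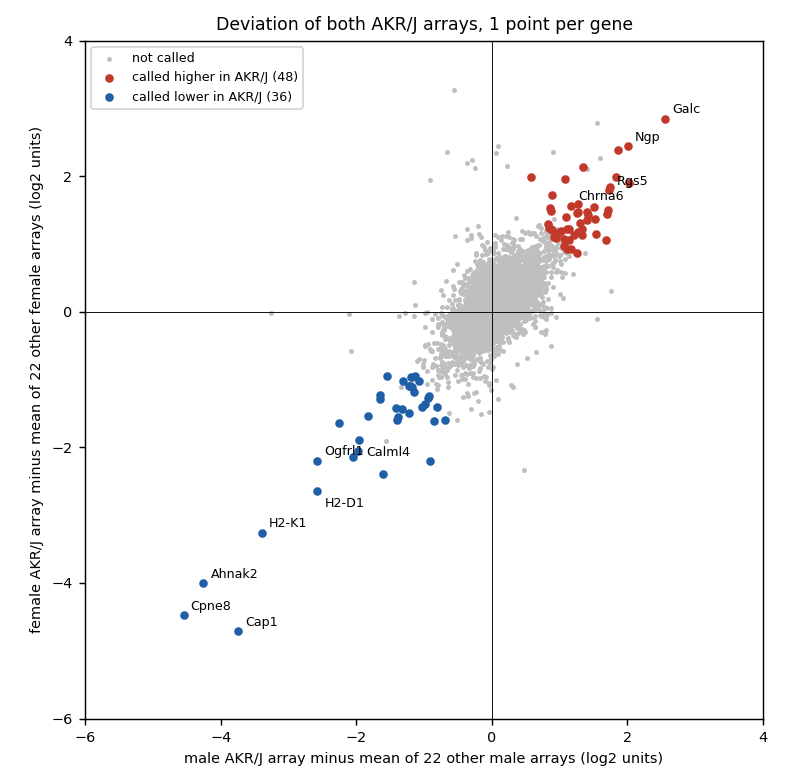
Deviation of the male AKR/J array (horizontal) and the female AKR/J array (vertical) from the mean of the other 22 arrays of that sex, in log2 units, with 1 point per tested gene; 48 genes called higher are red and 36 called lower are blue. The called genes lie in the upper right and lower left corners, with Cpne8, Cap1, Ahnak2, H2-K1 and H2-D1 farthest from 0.

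The fit sets AKR/J against the average strain, using the spread between the 2 arrays of a strain. A second fit of 2 groups, with strain as a random block, sets AKR/J against the spread between strains. In it 9 of the 48 and 9 of the 36 genes stayed past 0.05. The 9 higher genes were Uck1, Myo5b, Pomt1, Lrmda, Scgb1a1, Slc18a2, Snhg7, Ddx60 and Esm1. All of these but Uck1 and Pomt1 had a mean under 4 in the other strains, so AKR/J alone could carry them past the filter. The 9 lower genes were Ogfrl1, Calml4, Cab39l, Hsbp1l1, Dtx2, Ahnak2, Kcnma1, Appbp2 and Capg. For Ogfrl1 and Kcnma1 a further probe set was higher and also stayed past 0.05 in this fit. The AKR/J mean lay above all 22 other strain means in 27 of the genes called higher and below all of them in 21 of those called lower. At least 3 other strains were as high in 10 of the higher genes, and at least 3 as low in 8 of the lower ones.

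The 2 classical class I genes of the major histocompatibility complex were among the largest falls. H2-K1, on chromosome 17, encodes a heavy chain that shows peptides to T cells. It read 5.04 in the male and 5.20 in the female AKR/J array, against a lowest value of 4.90, a median of 9.12 and a highest of 10.82 in the other 44 arrays. The difference was -3.33 (SE 0.24, adjusted p = 1.99e-10; 0.725 with the strain block). AKR/J was thus near the bottom of the range but not alone there: the strain means of CBA/J (5.12), C58/J (5.37), C3H/HeJ (5.46), MRL/MpJ (5.47) and C57BR/cdJ (5.55) lay beside it, and the next strain stood at 8.11.

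H2-D1, the other classical class I heavy chain gene of this list, showed the same 5 strains at the low end. Its leading probe set read 6.78 in the male and 6.71 in the female AKR/J array, against a lowest value of 6.72, a median of 9.93 and a highest of 11.61 in the other arrays, a difference of -2.61 (SE 0.20, adjusted p = 4.51e-10; 0.745 with the strain block). A further H2-D1 probe set ran the other way. It read 9.54 in the male and 9.61 in the female AKR/J array, against 3.41, 3.93 and 9.77 as the lowest, median and highest of the others, a difference of 4.51 (SE 0.17, adjusted p = 1.21e-16). The strains high on it were again C57BR/cdJ, CBA/J, C58/J, C3H/HeJ and MRL/MpJ, all between 8.76 and 9.62, while the remaining 17 strains lay between 3.57 and 4.23. A further 3 sets of H2-D1 were called lower, at -3.89, -3.24 and -1.10, and a second set of H2-K1 was called at -2.97. The remaining sets were not called, at -0.71, -0.55 and -0.66 for H2-D1 and at 0.03 and -0.04 for H2-K1. Whether the probes of these sets match the AKR/J sequence was not tested, so a lower level and weaker binding cannot be told apart.

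The other genes of antigen presentation differed less. On leading probe sets, H2-K1 and H2-D1 were lower and none was higher among 11 class I and peptide loading genes tested, with a median of -0.02. Of all tested genes 0.321% were called lower and 0.428% higher. B2m, the invariant light chain of class I molecules, differed by 0.43 without being called. None of the 7 class II genes tested was called, and their median was -0.41, with H2-Ab1 lowest at -0.66. In chromosomal order, Aif1 was a called gene 5 places from H2-D1 among tested genes, and the other tested genes within 5 places of either gene were not called. The 6 nearest tested genes on each side of H2-K1 lay between -0.35 and 0.25.

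Cpne8, Cap1 and Ahnak2 had a low signal that some strains shared with AKR/J. Cpne8 encodes a copine, a calcium-dependent membrane-binding protein. Its leading probe set read 3.10 in the male and 3.01 in the female AKR/J array, against a lowest value of 3.00, a median of 9.00 and a highest of 9.78 in the other arrays, a difference of -4.51 (SE 0.13, adjusted p = 1.51e-19; 0.893 with the strain block). In 6 other strains, BUB/BnJ, NZW/LacJ, DBA/2J, SJL/J, BALB/CByJ and MRL/MpJ, the mean was also between 3.05 and 3.56, and in the remaining 16 it was at least 8.90. Another Cpne8 probe set was higher in AKR/J, at 8.07 in the male and 8.09 in the female AKR/J array against a median of 6.64 and a highest value of 7.99 in the others (difference 1.23, SE 0.20, adjusted p = 0.000369). The same 6 strains were the highest of the others on that set. The remaining set was called lower, at -1.14 (SE 0.18, adjusted p = 0.000199).

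Cap1 encodes an adenylyl cyclase-associated protein that speeds the turnover of actin filaments. It read 5.53 in the male and 4.08 in the female AKR/J array, against a lowest value of 3.27, a median of 10.44 and a highest of 10.99 in the others (difference -4.23, SE 0.38, adjusted p = 1.82e-08; 0.681 with the strain block). The second Cap1 probe set was lower by a similar amount, at -4.36. AKR/J had the lowest strain mean at 4.80, but 8 other strains, among them c57BL/6J at 4.93 and RIIIS/J at 5.48, also lay under 7.5, apart from the 14 strains above 10.2. Cap2, its relative, read 4.59 in the male and 4.66 in the female AKR/J array, against a highest value of 4.35 among the others; its difference of 0.98 (adjusted p = 9.5e-06) fell just short of the 1 unit asked of a call.

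Ahnak2 encodes a large scaffold protein. It read 6.48 in the male and 6.66 in the female AKR/J array, against a lowest value of 6.28, a median of 11.07 and a highest of 11.62 in the others (difference -4.13, SE 0.15, adjusted p = 5.2e-17; 0.0219 with the strain block). CBA/J at 6.80 and C3H/HeJ at 6.81 were the other low strains, and the remaining 20 lay at 10.57 or above. The same pair was also low for H2-K1 and H2-D1.

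**Figure D2:**
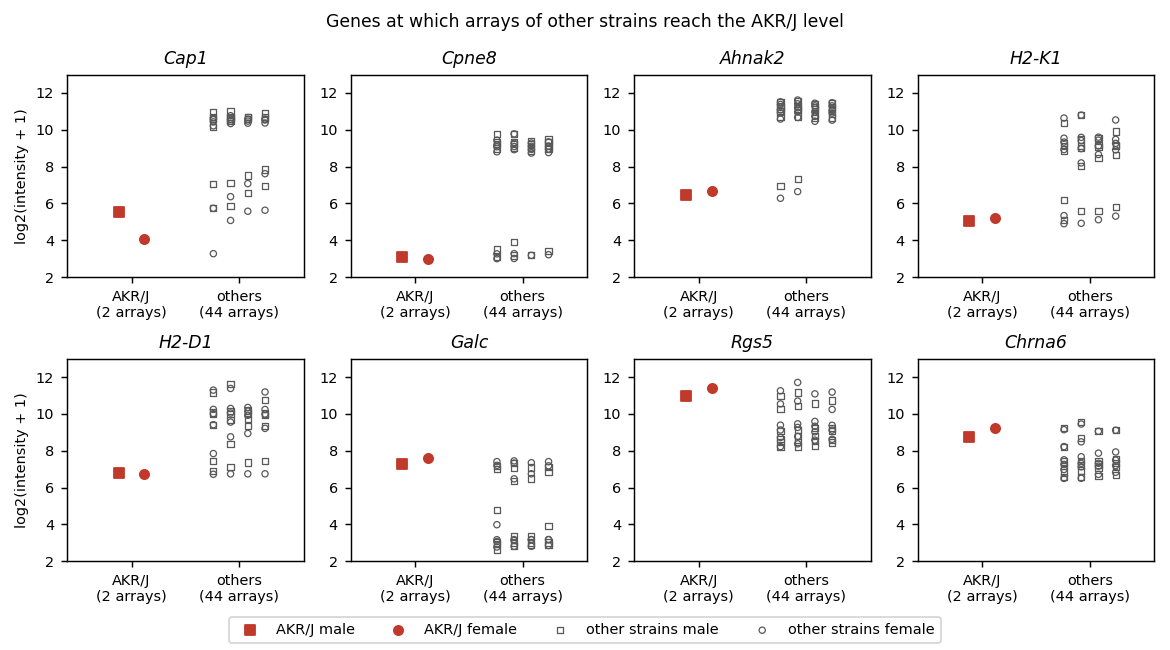
Log2(intensity + 1) of 8 called genes in the 2 AKR/J arrays (left, red) and the 44 arrays of other strains (right, open), with squares for males and circles for females. In each panel some arrays of other strains reach the AKR/J level; Cap1, Cpne8, Ahnak2, H2-K1 and Galc split the other strains into a high and a low set.

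Galc was the largest rise on leading probe sets. It encodes galactosylceramidase, the lysosomal enzyme that breaks down a major lipid of myelin. It read 7.28 in the male and 7.62 in the female AKR/J array, against a lowest value of 2.60, a median of 3.35 and a highest of 7.45 in the others (difference 2.70, SE 0.22, adjusted p = 1.47e-09; 0.998 with the strain block). AKR/J had the highest strain mean, yet 9 other strains lay between 6.42 and 7.37 and 13 between 2.84 and 4.38. The second Galc probe set was near background, at 2.57 in the male and 3.01 in the female AKR/J array and a median of 2.95 in the others. The myelin and Schwann cell list showed no call among 9 genes, with a median of 0.01.

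Rgs5, a regulator of G protein signalling that marks pericytes, was higher on all 4 of its probe sets. The leading set read 10.97 in the male and 11.41 in the female AKR/J array, against a lowest value of 8.22, a median of 9.13 and a highest of 11.70 in the others (difference 1.76, SE 0.16, adjusted p = 1.5e-08; 0.824 with the strain block). The other sets were higher by 2.63, 1.72 and 3.18. On the leading set CBA/J and DBA/2J had strain means as high as AKR/J. Next came C58/J (10.90), c57BL/6J (10.81), BALB/CByJ (10.63) and C57BR/cdJ (10.40), and the remaining 16 strains lay at 9.64 or below.

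Of the 10 vessel and mural cell genes tested, Rgs5 was the 1 called, 9 differed by more than 0, against 60.9% of all tested genes, and the median was 0.53. The contractile genes Myh11 (difference 0.86, adjusted p = 0.0242), Tagln (0.82, adjusted p = 0.0718) and Acta2 (0.70, adjusted p = 0.195) were above all 22 other strain means but under 1 unit. Averaged over its members, the list stood at 6.73 in the male and 6.69 in the female AKR/J array, against 5.62 to 6.90 in the other male and 5.73 to 6.56 in the other female arrays. Its endothelial members lay between -0.32 for Cldn5 and 0.64 for Tek, with Cdh5 at 0.02, Pecam1 at 0.14 and Emcn at 0.41, and Cdh5 was under 4 in both AKR/J arrays. In whole ganglia, more cells of a type and more RNA per cell cannot be told apart.

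Vcam1, an adhesion molecule that binds leukocytes, and Esm1, a proteoglycan secreted by endothelial cells, were also called higher. On its leading set Vcam1 read 5.92 in the male and 6.07 in the female AKR/J array. Both were above the highest value of 5.77 in the other arrays (difference 1.23, SE 0.23, adjusted p = 0.00141). The 2 further Vcam1 sets differed by -0.05 and 0.21 and were not called. Esm1 read 4.57 in the male and 5.63 in the female AKR/J array, against a median of 3.68 and a highest of 5.14 (difference 1.31, SE 0.23, adjusted p = 0.000632). Gucy1b1, the beta subunit of the nitric oxide receptor guanylyl cyclase, was higher by 1.06 (adjusted p = 0.0108) on its leading set. Its second set differed by 0.26 without a call. On the leading set both AKR/J arrays exceeded the highest other value of 5.38. With 1 AKR/J array left out these calls weakened: Vcam1 had an adjusted p of 0.103 without the male and 0.0503 without the female array, Gucy1b1 0.0594 and 0.615, and Esm1 0.36 without the female array. With pseudocount 16 the differences were 0.89 for Vcam1, 0.78 for Esm1 and 0.72 for Gucy1b1, and with quantile normalization 0.97 for Gucy1b1.

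Ngp, neutrophilic granule protein, was the 1 of 5 granulocyte genes called. It read 8.03 in the male and 7.88 in the female AKR/J array, against a lowest value of 3.65, a median of 5.62 and a highest of 9.10 in the others (difference 2.22, SE 0.59, adjusted p = 0.0381; 0.84 with the strain block). The other granulocyte genes tested spread widely between strains and were not called: S100a9 differed by 2.17 (adjusted p = 0.125), S100a8 by 1.93 (adjusted p = 0.106), Camp by 1.75 (adjusted p = 0.0737) and Ltf by 1.27 (adjusted p = 0.489). All 5 differed by more than 0, with a median of 1.93; of all tested genes 60.9% differed by more than 0. As a mean over the 5 genes, the male AKR/J array at 7.85 was exceeded by 1 of 22 other male arrays and the female at 8.24 by 0 of 22 other female arrays. C3H/HeJ had more Ngp than AKR/J, at a strain mean of 8.33. With 1 AKR/J array left, Ngp differed by 2.44 without the male (adjusted p = 0.228) and by 2.00 without the female array (adjusted p = 0.666).

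Slc4a1, the anion exchanger of red cells, was higher by 1.22 (SE 0.22, adjusted p = 0.00082), at 6.61 in the male and 6.13 in the female AKR/J array against a median of 5.11 and a highest of 6.66. The other red cell genes tested, Alas2 at 0.60 and Car2 at 0.51, were not called. Slc4a1 itself had an adjusted p of 0.0643 without the male and 0.0503 without the female AKR/J array, and differed by 0.93 with pseudocount 16. Aif1, a calcium-binding protein of macrophages, was just called at 1.07 (SE 0.30, adjusted p = 0.0473), and lost the call in 37 of 59 alternative fits, among them those without the male (adjusted p = 0.265) or the female AKR/J array (0.699), that with SM/J and PL/J among the other strains (0.0679) and that with pseudocount 16 (0.134). The remaining 10 of 11 macrophage genes were not called, and the list's median was 0.28. No lymphocyte gene of the 4 tested was called, and their median was -0.04. The part of blood content in the higher genes was not tested.

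Of the 44 lists, the muscle genes had the widest gap between the male and the female AKR/J array; that gap was not tested. None of the 9 skeletal muscle genes was called. Their median deviation was -0.36 in the male and 1.26 in the female AKR/J array, and the mean level of 6.85 in the female AKR/J array was exceeded by 1 of 22 other female arrays.

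**Figure D3:**
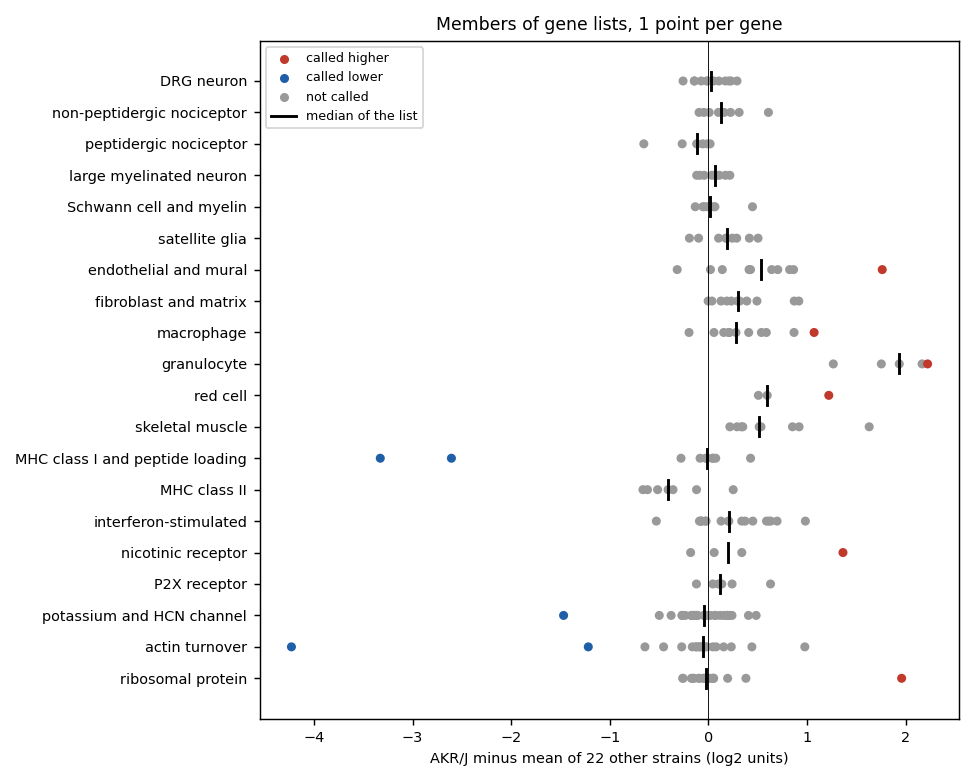
AKR/J minus the mean of the 22 other strains, in log2 units, for each tested member of 20 gene lists; red and blue points were called higher and lower, and the black bars are list medians. The granulocyte list sits farthest to the right, with a median of 1.93, while the neuron and myelin lists lie around 0.

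Ifih1, Ddx60, Trim12c and Ifi202b were among the 48 genes called higher. They belong to no list used here and were picked after their values were seen. Ifih1 encodes a cytoplasmic receptor for double-stranded RNA, Ddx60 a helicase-like protein linked to antiviral RNA sensing, Trim12c a member of the Trim5 family, and Ifi202b a member of the interferon-inducible HIN family. Ifih1 read 5.31 in the male and 5.78 in the female AKR/J array, against a lowest value of 3.57, a median of 4.50 and a highest of 5.60 in the others (difference 1.02, SE 0.22, adjusted p = 0.00788; 0.615 with the strain block). Ddx60 read 4.13 in the male and 4.58 in the female AKR/J array, both above the highest other value of 4.01 and a median of 3.16 (difference 1.18, SE 0.15, adjusted p = 5.19e-06; 0.000999 with the strain block). For Ifih1 and Ddx60, both AKR/J arrays lay above all 44 others after centring on sex. The Ifih1 call was lost without the male (adjusted p = 0.107) or the female AKR/J array (adjusted p = 0.339), and also without the CBA/J male array, where the difference was 0.99. Without the female AKR/J array the difference of Ddx60 was 0.87 (adjusted p = 0.022). With pseudocount 16 the differences were 0.68 for Ifih1 and 0.56 for Ddx60, and with quantile normalization 0.93 for Ifih1, all under the 1 unit asked of a call.

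Trim12c read 6.63 in the male and 7.17 in the female AKR/J array. The others had a lowest value of 2.81, a median of 5.88 and a highest of 6.96. The difference was 1.36 (SE 0.21, adjusted p = 0.00015, and 0.998 with the strain block). Other strain means of Trim12c ran from 3.04 in SJL/J to 6.80 in C3H/HeJ. Ifi202b read 4.62 in the male and 4.91 in the female AKR/J array, against 3.05, 3.45 and 5.30 in that order. It differed by 1.05 (SE 0.28, adjusted p = 0.036, and 0.912 with the strain block), and 2 other strains were as high. Without the male AKR/J array the adjusted p of Ifi202b was 0.179, and without the female 0.726; its difference was 0.56 with pseudocount 16 and 0.98 with quantile normalization. Of the 18 interferon-stimulated genes tested 0 were called, 11 differed by more than 0, close to the 60.9% of all tested genes, and the median was 0.20. Its most raised gene was Rtp4, an interferon-induced receptor transporter protein, at 0.98 (adjusted p = 0.00842).

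The promoters of Ifih1, Ddx60 and Trim12c are shown because, of these 4 genes, they hold a match to the core of the interferon-stimulated response element; the promoter entry of Ifi202b holds 0 matches, as do those of H2-K1 and H2-D1. Sequences are RefSeq's for GRCm38.p6, the assembly of the C57BL/6J strain and not of AKR/J, from 250 bases before to 50 after the annotated start, 5′ to 3′ along the gene. Capitals mark each match to GAAANNGAAA, with N for any base, on either strand.
Ifih1, chr2:62646206-62646505, minus strand: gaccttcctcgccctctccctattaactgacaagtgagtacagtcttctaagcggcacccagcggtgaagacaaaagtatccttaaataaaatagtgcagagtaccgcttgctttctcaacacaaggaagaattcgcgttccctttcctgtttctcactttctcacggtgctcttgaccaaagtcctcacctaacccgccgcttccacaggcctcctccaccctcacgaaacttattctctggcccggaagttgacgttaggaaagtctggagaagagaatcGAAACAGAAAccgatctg
Ddx60, chr8:61927837-61928136, plus strand: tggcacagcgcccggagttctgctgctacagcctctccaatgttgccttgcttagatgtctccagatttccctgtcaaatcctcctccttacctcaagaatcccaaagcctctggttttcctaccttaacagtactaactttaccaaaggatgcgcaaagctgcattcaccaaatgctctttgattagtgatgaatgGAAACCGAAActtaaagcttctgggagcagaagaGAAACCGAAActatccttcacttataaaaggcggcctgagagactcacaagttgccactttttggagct
Trim12c, chr7:104353300-104353599, minus strand: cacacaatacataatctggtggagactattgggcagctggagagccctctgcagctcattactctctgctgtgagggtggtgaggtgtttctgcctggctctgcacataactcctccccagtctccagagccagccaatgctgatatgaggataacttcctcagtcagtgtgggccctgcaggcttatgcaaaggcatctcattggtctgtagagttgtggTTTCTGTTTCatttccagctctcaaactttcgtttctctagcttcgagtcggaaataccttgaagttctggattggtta

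Ddx60 holds the motif 2 times, Ifih1 1 time, and Trim12c 1 time on the opposite strand, where it reads TTTCTGTTTC. Of the 36 genes called higher that had a promoter entry, 4 (11.1%) held it, namely these 3 and Aif1, against 1 of 30 (3.33%) called lower and 333 of 9095 tested genes (3.66%). Over all 27025 genes with an entry the share was 3.99%. Ifih1, Ddx60 and Trim12c were picked after their values were seen, and the shares were not tested against each other. The Ifih1 match begins 32 bases after the annotated start. A match describes these letters and is not a measured binding site.

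The genes tied to leukaemia virus entry and silencing showed no call among the 12 tested, and their median was 0.11. Fv1, the capsid-targeting restriction gene named for its virus resistance alleles, differed by 0.48 (adjusted p = 0.436). Thy1, a surface glycoprotein of neurons and T cells with a known AKR/J allele, read 10.69 in the male and 10.52 in the female AKR/J array, against a lowest value of 9.99, a median of 10.97 and a highest of 11.58 in the others (difference -0.34, adjusted p = 0.39). Hc, the complement component for which AKR/J lacks a working allele, did not pass the filter. It was near background in all strains, at 2.53 in both AKR/J arrays against 2.51, 2.55 and 2.80 as the lowest, median and highest of the others. Soat1, a cholesterol-esterifying enzyme with a known AKR/J allele, was not analysed here.

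Among the receptors in the study's title, Chrna6 was higher in AKR/J. Its product is a subunit, alpha6, of the ion channels that nicotine opens. The leading probe set read 8.75 in the male and 9.24 in the female AKR/J array, against a lowest value of 6.49, a median of 7.33 and a highest of 9.54 in the others (difference 1.36, SE 0.18, adjusted p = 1.22e-05; 0.989 with the strain block). The second set was higher by 1.73 (SE 0.41, adjusted p = 0.0144). AKR/J belonged to the upper end of a spread that other strains filled: 4 strains had means at or above its own. With SM/J and PL/J among the other strains the difference was 1.39 and the adjusted p 0.0943, so the call was lost. The other nicotinic genes tested, Chrna3 (-0.18), Chrnb2 (0.06) and Chrna7 (0.34), were not called. P2rx3, the ATP-gated channel subunit of nociceptors, read 11.40 in the male and 11.57 in the female AKR/J array and a median of 11.38 in the others (difference 0.10, SE 0.09, adjusted p = 0.717). P2rx2 differed by -0.12 (adjusted p = 0.881), at 3.37 in the male and 3.13 in the female AKR/J array, and 0 of 6 P2X genes were called.

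A group of genes set AKR/J apart from each single strain. In 73 genes (0.651%) both AKR/J arrays lay above all 44 others after centring on sex, and in 24 genes (0.214%) below all of them. Of these, 15 and 8 were called. AKR/J arrays can meet the filter alone only where they are high, so the counts above and below are not on equal terms. Ogfrl1, a gene related to the opioid growth factor receptor, was the clearest on its leading probe set. It read 7.41 in the male and 7.48 in the female AKR/J array, against a lowest value of 8.94, a median of 9.83 and a highest of 10.49 in the others (difference -2.39, SE 0.16, adjusted p = 5.53e-11; 2.48e-11 with the strain block). Here too another probe set ran the other way, at 8.40 in the male and 8.17 in the female AKR/J array against a highest value of 7.67. Its difference was 1.11 (SE 0.14, adjusted p = 8.38e-06, and 0.0016 with the strain block). The remaining set differed by 0.14.

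Uck1, uridine-cytidine kinase, and Pomt1, a protein O-mannosyltransferase needed for glycosylation of dystroglycan, rose together and are neighbours among the tested genes of chromosome 2. Uck1 read 7.99 in the male and 8.01 in the female AKR/J array, against a lowest value of 6.04, a median of 6.66 and a highest of 6.95 in the others (difference 1.38, SE 0.13, adjusted p = 1.86e-08; 5.82e-09 with the strain block). Pomt1 read 7.32 in the male and 6.39 in the female AKR/J array, against 4.38, 5.21 and 6.50 (difference 1.57, SE 0.20, adjusted p = 5.36e-06; 4.66e-05 with the strain block). Swi5, a recombination repair factor and the next tested gene, read 12.11 in the male and 11.86 in the female AKR/J array, above the highest other value of 11.30, with a difference of 0.98 (adjusted p = 8.25e-07). The 6 tested genes before Pomt1 lay between -0.43 and 0.25, and Golga2 and Dnm1 after Swi5 at 0.02 and -0.12.

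On chromosome 14 a pair of neighbours moved apart. Lrmda, a leucine-rich repeat gene of melanocyte differentiation, read 5.41 in the male and 5.06 in the female AKR/J array, against a lowest value of 3.12, a median of 3.93 and a highest of 4.67 in the others (difference 1.43, SE 0.17, adjusted p = 1.23e-06; 6.79e-05 with the strain block), and its second probe set was higher by 1.10. Kcnma1, the large-conductance calcium-activated potassium channel, read 3.04 in the male and 3.76 in the female AKR/J array, against 4.12, 4.77 and 6.51 (difference -1.47, SE 0.26, adjusted p = 0.00068; 0.0253 with the strain block). Another Kcnma1 probe set was higher, at 4.67 in the male and 5.20 in the female AKR/J array against a highest value of 4.13. Its difference was 1.18 (SE 0.10, adjusted p = 2.43e-09, and 2.48e-11 with the strain block). The sign for Kcnma1 thus differed between probe sets, and without the male AKR/J array the leading set had an adjusted p of 0.0909. With pseudocount 16 the differences were 0.86 for Lrmda and -0.79 for Kcnma1. In the potassium and HCN channel list it was the 1 gene of 31 that was called, and the list's median was -0.04.

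Several genes were near background in the other strains and above it in AKR/J. The 2 AKR/J arrays could carry such genes past the filter, so being tested was not independent of the rise. With no filter on low values 44 genes were called higher and 32 lower. Myo5b, a myosin motor of recycling vesicles, read 4.89 in the male and 4.52 in the female AKR/J array, against a median of 3.08 and a highest of 4.41 in the others (difference 1.61, SE 0.12, adjusted p = 1.77e-10; 5.97e-09 with the strain block). Slc18a2, the vesicular monoamine transporter, read 4.19 in the male and 5.03 in the female AKR/J array, against a median of 3.35 and a highest of 4.35 (difference 1.19, SE 0.17, adjusted p = 2.71e-05; 0.000289 with the strain block). Both strain means were above all 22 others, and Slc18a2 had an adjusted p of 0.0662 without the female AKR/J array. Scgb1a1, a secretoglobin known from airway club cells, was higher by 1.31 (adjusted p = 1.74e-07) and the host gene of small nucleolar RNAs Snhg7 by 1.43 (adjusted p = 3.47e-08). With pseudocount 16 the differences were 0.80 for Myo5b, 0.63 for Slc18a2, 0.79 for Scgb1a1 and 0.67 for Snhg7, under the 1 unit asked of a call, with adjusted p of 3.84e-05 or below.

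Mab21l1, a developmental regulator, was higher on both probe sets. Its leading set read 7.56 in the male and 7.91 in the female AKR/J array, against a lowest value of 4.47, a median of 5.90 and a highest of 7.06 in the others (difference 1.90, SE 0.32, adjusted p = 0.000357; 0.0842 with the strain block), and the second set differed by 1.34. Egr3, an immediate early transcription factor that is needed for muscle spindles, was higher by 1.37 (SE 0.29, adjusted p = 0.00637), at 7.97 in the male and 6.82 in the female AKR/J array against a median of 5.99. It was the 1 of 15 immediate early genes called, in a list with a median of 0.20. Amy1, an amylase gene, was higher by 1.38 (adjusted p = 1.21e-06), although its strain block p was 0.893. Egr3 had an adjusted p of 0.339 without the male AKR/J array, and Mab21l1 0.0546 without the female.

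On the low side, Calml4, a calmodulin-like protein, read 5.41 in the male and 5.22 in the female AKR/J array, against a lowest value of 6.30, a median of 7.22 and a highest of 8.30 in the others (difference -1.93, SE 0.21, adjusted p = 6.51e-07; 0.00059 with the strain block). Hsbp1l1, a relative of heat shock factor binding protein, read 6.24 in the male and 5.98 in the female AKR/J array, against 6.72, 8.35 and 8.99 (difference -2.02, SE 0.10, adjusted p = 6.36e-14; 0.0051 with the strain block). Cab39l, a scaffold of the Lkb1 kinase complex, differed by -1.15 (SE 0.09, adjusted p = 6.54e-10), and by -0.73 on a second set that was not called. On their leading sets the 3 genes share the pattern that both AKR/J arrays lay below all 44 others.

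Capg, a protein that caps actin filaments, was lower too, at 5.83 in the male and 5.62 in the female AKR/J array against a lowest value of 5.98 and a median of 6.94 in the others (difference -1.22, SE 0.20, adjusted p = 0.00033; 0.0414 with the strain block). With Cap1, whose low signal 8 other strains shared, it made 2 lower and 0 higher calls among 22 actin turnover genes. Their median was -0.06, and of all tested genes 0.321% were called lower. Dtx2, a Deltex ubiquitin ligase of the Notch pathway, differed by -1.18 (adjusted p = 0.000739, and 0.0201 with the strain block). Appbp2 differed by -1.11 (adjusted p = 0.000327, and 0.0328 with the block) and Zcchc9 by -1.14 (adjusted p = 0.000921, and 0.26 with the block). These are leading sets. The 3 further sets of Appbp2 differed by 0.26, -0.04 and 0.54, and the second set of Dtx2 by -0.42, all without a call. Without the female AKR/J array the adjusted p was 0.11 for Capg, 0.188 for Dtx2, 0.224 for Appbp2 and 0.0597 for Zcchc9, and Zcchc9 had 0.0642 without the male. With pseudocount 16 the differences were -0.99 for Dtx2 and -0.88 for Zcchc9.

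**Figure D4:**
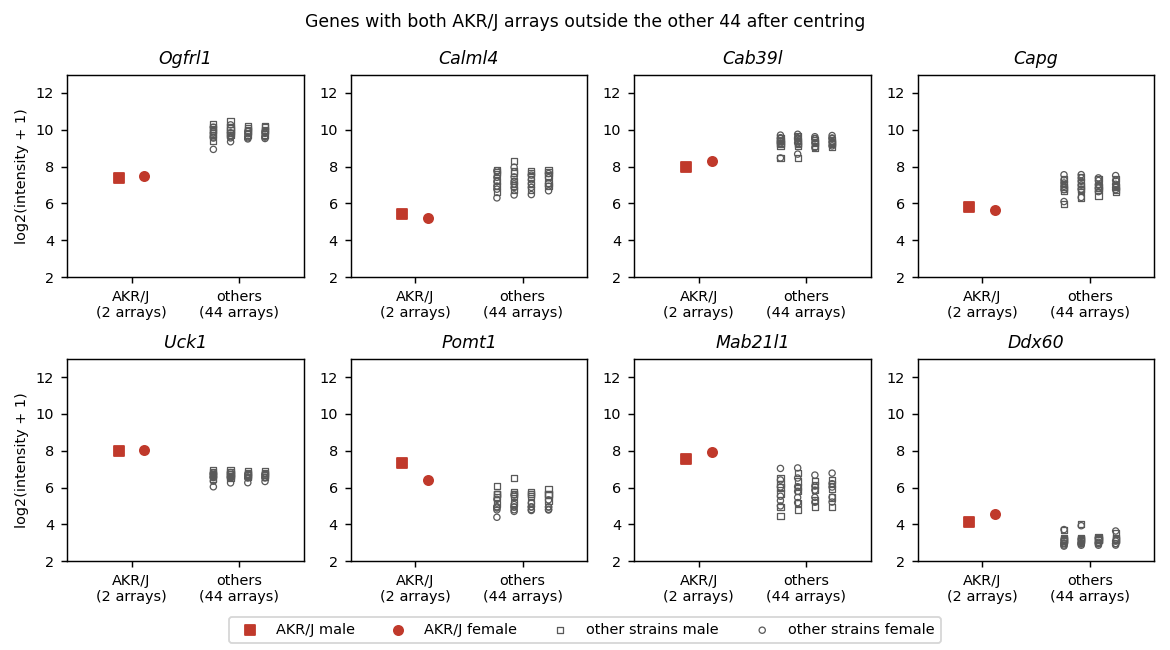
Log2(intensity + 1) of 8 called genes in the 2 AKR/J arrays (left, red) and the 44 arrays of other strains (right, open), with squares for males and circles for females. Ogfrl1, Calml4, Cab39l and Capg in AKR/J lie below, and Uck1, Pomt1, Mab21l1 and Ddx60 above, the other arrays of the same sex.

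The rest of the 15 largest rises and falls differed in how many strains shared the AKR/J level. Among the rises, Gm13306 (difference 2.13) had 5 other strains at or above AKR/J, Lypd1 (1.79), a toxin-like modulator of nicotinic receptors, had 4, and S100a7l2 (1.74), Cnmd (1.53) and Tmem267 (1.52) had 2 each. Rpl14, a protein of the large ribosomal subunit, was higher by 1.96 (SE 0.14, adjusted p = 1.14e-10, and 0.867 with the strain block). Its AKR/J mean was 7.55 against a median of 5.41 in the other arrays, and DBA/2J was higher at 7.64. Over its list the mean level in AKR/J was 11.37. The other 19 of 20 ribosomal protein genes were not called, and the list had a median of -0.02. Tnfaip8, a regulator of cell death, was higher by 1.44 (adjusted p = 0.00566), above all 22 other strain means. Among the falls, Gdpd3, Pcdhb9 and Rbfox2 had 3 other strains at or below AKR/J each. Rbm45 differed by -2.00, with 1 other strain at or below AKR/J, and Pcdhb9, a clustered protocadherin, by -1.95. Akr1e1, an aldo-keto reductase, differed by -1.68 and was below all 22 other strain means. Morn2 differed by -1.50. Rbfox2, a splicing factor, differed by -1.56 (SE 0.43, adjusted p = 0.0485) and lost its call in 36 of 59 alternative fits. Its 3 further probe sets lay between -0.37 and 0.17. With SM/J and PL/J among the other strains the adjusted p was 0.139 for Tmem267 and 0.0843 for Rbfox2. Without the female AKR/J array it was 0.328 for Tmem267, 0.412 for S100a7l2, 0.155 for Tnfaip8, 0.0943 for Rbm45 and 1 for Rbfox2. Without the male AKR/J array it was 0.166 for Tnfaip8, 0.058 for Akr1e1 and 0.0676 for Rbfox2.

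Probe sets of the same gene did not always move together. The 31 called genes with further tested probe sets had 57 of them: 40 had the sign of the leading set, 16 were called the same way, and 5 were called the opposite way, 1 each for H2-D1, Cpne8, Ogfrl1, Kcnma1 and Pdxdc1. Over all 22130 probe sets tested, 228 were called (1.03%), 115 of them higher (0.52%) and 113 lower (0.511%). For Pdxdc1, a decarboxylase-like gene, the leading set read 7.90 in the male and 7.68 in the female AKR/J array, a mean of 7.79. Of the other strains, 16 lay between 7.72 and 8.16 and 6 at 3.41 or below, and 12 were at or above AKR/J although the difference from their average was 1.17. In 10 of the lower genes both AKR/J arrays were under 4, and in 13 of the higher genes the mean of the other strains was.

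**Figure D5:**
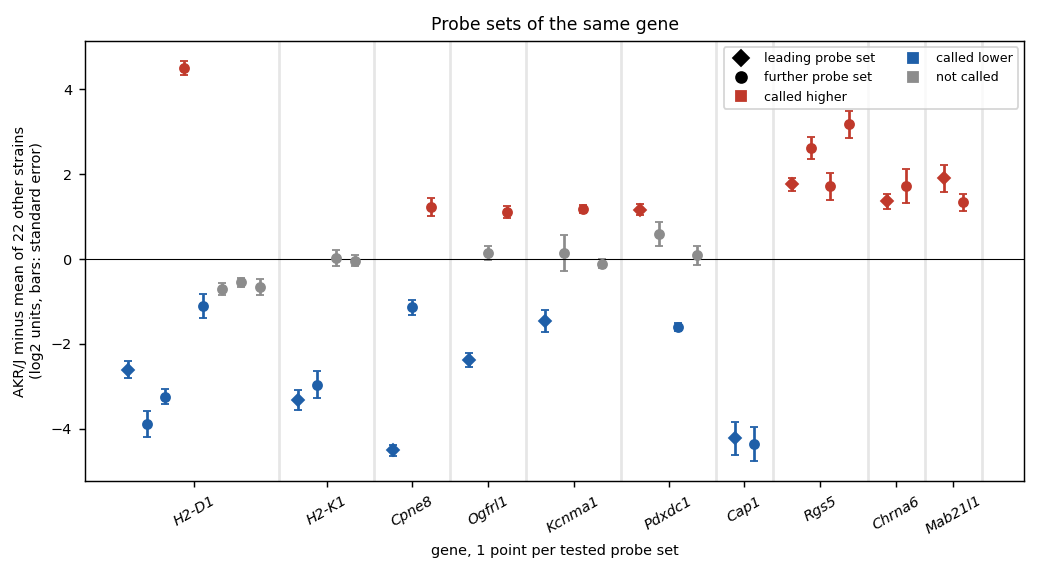
AKR/J minus the mean of the 22 other strains, in log2 units with standard errors, for each tested probe set of 10 called genes; diamonds are leading sets, circles further sets, and colours show the call. H2-D1, Cpne8, Ogfrl1, Kcnma1 and Pdxdc1 each have sets called in both directions, while both sets of Cap1 are lower and all 4 sets of Rgs5 higher.

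No sensory neuron gene was called among 12 general neuronal, 8 non-peptidergic nociceptor, 7 peptidergic nociceptor, 8 itch neuron, 5 low-threshold C fibre and 9 large myelinated neuron genes, whose medians lay between -0.11 and 0.14. Sodium channels (11 genes, median 0.17), TRP, ASIC and Piezo channels (13 genes, -0.02), calcium channels (13 genes, -0.03), and GABA and glutamate receptors (19 genes, 0.10) also had no call. Nts, the neuropeptide neurotensin, had the largest difference among them at -1.73 (SE 0.49, adjusted p = 0.0567), at 5.77 in the male and 5.36 in the female AKR/J array against a range of 4.44 to 10.14 in the others. Across all 44 lists, 12 of 498 tested genes were called, in 11 lists, beside 84 of all 11209 tested genes (0.749%). The lists were chosen with earlier results of these data known, and the shares were not tested against each other. In 35 lists the median lay between -0.3 and 0.3.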

How the data were processed

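Affymetrix arrays carried biotin-labelled RNA. The deposited values are linear intensities made by the authors; the submitters' processing notes name GCRMA and R 2.6.2, with no settings. The lowest values differed between male and female arrays (AKR/J 1.64 and 1.73), and no source used here says whether the sexes were normalized together. Values were put on the log2(intensity + 1) scale here. Gene names came from the platform annotation: of 45037 probe sets without controls, 34945 had 1 symbol, 932 several and 9160 none, and 11183 of the 11209 tested genes matched RefSeq.

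limma 3.58.1 in R 4.3.3 fitted 23 strains and gender. A strain's 2 pools are its replicates, so p-values measure the spread between pools, and the number of arrays limits precision. Alternatives included SM/J and PL/J among the other strains, other pseudocounts, filters and normalization, and single arrays left out. Members and lists were chosen with earlier results of these data known. Genes were named by rule: the 15 largest rises and falls called, called members of the lists (up to 4 for most lists), Chrna6, P2rx3, Soat1, Thy1, Hc and Cap1, and up to 10 genes each way with both arrays farthest outside all others. Other genes named were chosen after their values were seen.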

Additional observations from a re-analysis of the deposited data

Results flagged for a closer look

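The AKR/J deviation differed between the male and the female array for 1 of 22130 probe sets tested (0.00452%), a further probe set of Ufm1, a ubiquitin-like modifier. It deviated by 0.85 in the male and by -0.16 in the female AKR/J array, a difference of 1.02 (limma on the male minus female difference of each strain, adjusted p = 0.00463). Its log2 values were 4.64 and 4.22. At an unadjusted p under 0.05 there were 410 probe sets.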

How the results depend on the processing

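The counts of called genes depended on the spread used and on the thresholds. Strain as a random block left 9 higher and 9 lower genes, male arrays alone 7 and 2, and female arrays alone 8 and 2. Pseudocount 16 gave 20 higher and 24 lower, and a filter at 6 gave 31 and 30. Quantile normalization gave 39 higher and 40 lower. No minimum difference gave 164 higher and 111 lower, and a minimum of 2 gave 3 and 8. Taking all probe sets of a gene gave 70 higher and 63 lower. Leaving out 1 array at a time gave 31 to 54 higher and 25 to 38 lower genes, with the lowest counts without the female AKR/J array. Quantile normalization put 47 genes above and 35 below all others. Counts outside all others ranged from 69 to 337 above and 22 to 158 below with 1 array left out, highest without the male AKR/J array, since 1 array then has to lie outside. Without the female AKR/J array they were 171 and 98. The difference between sexes gave 0 probe sets with pseudocount 16 and 0 with the filter at 6. Of the 84 called genes, 31 lost their call without the male and 38 without the female AKR/J array. On leading probe sets none of the 84 called genes changed sign, and Pomt1, Ogfrl1 and Uck1 kept their calls in all 59 alternatives. A further probe set of Ogfrl1 was called the opposite way. The cause of the shifts in counts was not tested. Leaving out the 2 arrays with the highest Gapdh 3′ minus 5′ signal was added after seeing the data and gave 53 higher and 38 lower genes. Gender, which pairs arrays across strains, was a term in the fit, and without it 41 genes were higher and 31 lower. With SM/J and PL/J among the other strains 46 were higher and 34 lower, and 7 named genes lost their call, Chrna6 among them. Depth does not apply to arrays, and values near background carry little information.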
